A study of Mus musculus with 6 samples.

Results

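Nodal is a secreted growth factor of the TGF-beta family, and the 8 genes described here are Nodal, its relative Gdf3, the co-receptor genes Tdgf1 and Cfc1, the antagonist genes Lefty1, Lefty2 and Cer1, and Foxh1, a transcription factor of the pathway. They were given by name and taken as the entries of the same name, 8 of 24421 gene entries in the count table. RNA of mouse induced pluripotent stem cells (iPSCs, somatic cells brought back to pluripotency) was sequenced in bulk from 3 SRF KO samples (SRFΔ/Δ, both alleles of serum response factor deleted) and 3 WT samples (SRFf/f, the conditional allele left intact). All 6 samples were grown with serum. The labels do not say how or when the allele was deleted, whether replicates came from separate clones, or if feeder cells were present, so that the p-values measure the spread between these samples, which may be technical.

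Nodal is made as a precursor that proprotein convertases cleave. With Gdf3 or alone it binds activin receptors together with an EGF-CFC co-receptor, and the receptors phosphorylate SMAD2 and SMAD3, which join SMAD4 and act on DNA with partners such as FOXH1. Lefty1 and Lefty2 are themselves induced by the pathway and block the ligand and its co-receptor, which closes a feedback loop, while Cer1 encodes a secreted protein that binds Nodal. In the early embryo the anterior visceral endoderm, an extraembryonic layer, secretes Cer1 and Lefty1 and so limits Nodal signalling in the neighbouring epiblast. Pluripotent stem cells in serum transcribe Nodal, Tdgf1, Gdf3 and both Lefty genes.

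Lefty1 and Lefty2 are neighbouring, similar genes, so it was first checked whether reads could be told apart. In GENCODE M21 (assembly GRCm38, the assembly of the build mm10 that the submitters' processing notes name), Lefty2 lies on the plus strand at chr1:180893108-180899103 and Lefty1 on the same strand at chr1:180935022-180938400, with 35918 bases between them. Their coding sequences, 1104 bases each, aligned without gaps and were 91.8% identical, with 90 mismatches and a longest identical run of 140 bases. No stretch as long as a read (150 bases) in either transcript was present in the other, while 11.2% of the 75-base stretches of Lefty1 were also in Lefty2. The gap-free window of 60 coding bases with the most mismatches, 18, lies in exon 1 of both genes, at chr1:180935143-180935202 for Lefty1 and chr1:180893217-180893276 for Lefty2. It is shown because the comparison of the Lefty genes rests on bases such as these, with the differing bases in capitals.
Lefty1: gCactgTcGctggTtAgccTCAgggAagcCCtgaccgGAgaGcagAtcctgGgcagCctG
Lefty2: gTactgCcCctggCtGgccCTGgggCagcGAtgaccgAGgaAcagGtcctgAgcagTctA

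The other 6 genes lie apart from each other in the same annotation. Nodal is at chr10:61417972-61425338 (plus strand), Gdf3 at chr6:122605403-122610087 (minus), Tdgf1 at chr9:110939603-110946158 (minus), Cfc1 at chr1:34535648-34544313 (plus), Cer1 at chr4:82881751-82885148 (minus) and Foxh1 at chr15:76668225-76669948 (minus). The co-receptor pair Tdgf1 and Cfc1 was 49.7% identical over the aligned coding sequence and the ligand pair Nodal and Gdf3 51.1%, with longest identical runs of 7 and 11 bases. Tdgf1 shared 0.28% of its 150-base stretches and 8.67% of its 75-base stretches with the pseudogene Tdgf1-ps1, which has no entry of that name in the table. Cfc1 overlaps Prss40 and the pseudogene Gm28419 on the opposite strand, and Foxh1 ends 28 bases from Kifc2, which is read from the opposite strand. Whether counting used strand is not given in the sources used here.

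RefSeq promoter windows (GRCm38.p6, 250 bases before to 50 bases after the start site) were found for 4 of the 8 genes, Nodal, Tdgf1, Cfc1 and Cer1. They were searched on both strands for the CArG box, which serum response factor binds, for the FOXH1 motifs AATCCACA and AATACACA, the SMAD motifs GTCTAGAC and CAGAC and the GATA motif AGATAA; no motif contains another. None of the 4 windows held a CArG box, present in 1.63% of all 32851 windows, or either FOXH1 motif (0.855% and 0.98% of windows) or GTCTAGAC (0.213%). CAGAC, present in 49.6% of all windows, was found in those of Cer1, Cfc1 and Tdgf1, and AGATAA, in 11.2%, in that of Cfc1. A match is a description of letters and not of a bound site. The windows of Cer1, which had the largest change of the 8 genes, and of Tdgf1, the most abundant, are printed 5′ to 3′ on the gene's own strand with CAGAC in capitals, at position -213 and at position -113 from the start site.
Cer1, chr4:82885102-82885401: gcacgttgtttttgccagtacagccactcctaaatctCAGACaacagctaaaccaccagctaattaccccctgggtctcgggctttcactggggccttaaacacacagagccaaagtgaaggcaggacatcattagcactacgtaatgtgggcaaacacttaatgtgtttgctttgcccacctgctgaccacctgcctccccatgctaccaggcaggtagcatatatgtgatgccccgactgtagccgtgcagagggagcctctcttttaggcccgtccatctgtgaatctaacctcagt
Tdgf1, chr9:110946109-110946408: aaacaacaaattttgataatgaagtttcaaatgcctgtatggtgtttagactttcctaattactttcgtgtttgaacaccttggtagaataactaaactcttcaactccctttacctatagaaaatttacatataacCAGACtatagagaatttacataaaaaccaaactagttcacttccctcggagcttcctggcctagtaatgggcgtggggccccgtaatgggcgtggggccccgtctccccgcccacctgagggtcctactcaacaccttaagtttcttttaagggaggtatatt

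Total counts were between 26321602 and 36680156 per library, so that a count of 3 corresponds to between 0.0828 and 0.117 CPM, the unit of level used here, in which counts are scaled by TMM to equal library sizes. The targeted gene Srf had 84 to 131 counts in the SRF KO libraries and 765 to 1326 in the WT libraries. Its mean was 3.97 ± 0.707 CPM in SRF KO against 34.5 ± 4.14 CPM in WT (SD, n = 3), lower as labelled but not absent. The source of the remaining Srf counts was not tested. On the second principal component of log2 CPM, which held 9.85% of the variance, the WT libraries lay at 6.72, -17.7 and 12.1, with replicate 2 apart from its group. Levels below are TMM-scaled CPM, and fold changes are on the log2 scale (SRF KO divided by WT) with a standard error (SE). Adjusted p-values come from the quasi-likelihood test of edgeR, with the Benjamini-Hochberg method applied to all 15611 entries tested. At a threshold of 0.05, 6414 entries passed, and without WT replicate 2 the number was 7629, or 48.1% of the entries then tested.

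To see how the pathway's own components differed without serum response factor, the 8 genes were compared between the groups. Cer1, Foxh1, Lefty2 and Nodal were higher in SRF KO and Lefty1 and Tdgf1 lower, Gdf3 did not pass the threshold of 0.05, and Cfc1 had too few counts to be tested. These are 6 of 7 tested genes, beside 41.1% of all entries tested, and 4 higher and 2 lower beside 20.4% and 20.7%. The same 6 genes were without overlap between the groups, as were 51.4% of all entries. The median absolute log2 fold change was 0.49 over the 7 genes and 0.20 over all entries. The fitted fold of Cer1 was 23.4, and the next largest, that of Foxh1, was 1.59. Without WT replicate 2 the counts were again 4 higher and 2 lower, beside 48.1% of all entries. Without SRF KO replicate 1 they were 3 higher and 1 lower, beside 30.4% of all entries, and at an adjusted p of 0.01 also 3 and 1, beside 27.4%.

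**Figure D1:**
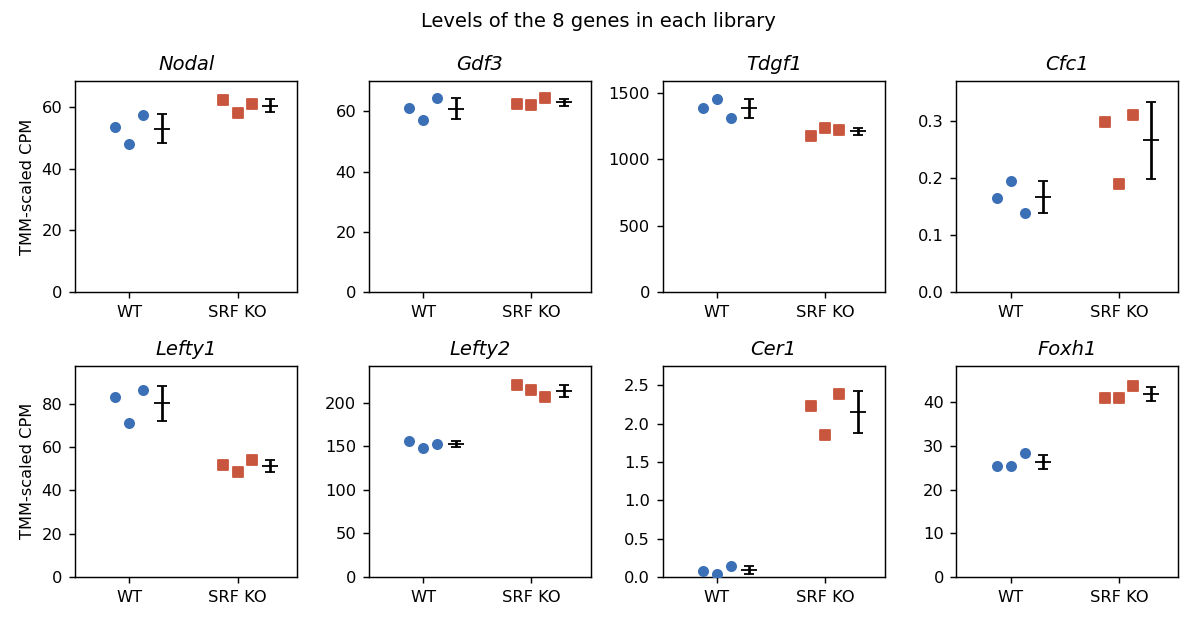
TMM-scaled CPM (vertical axes, each starting at 0) of the 8 genes in the 3 WT (circles) and 3 SRF KO (squares) libraries, with replicates 1 to 3 from left to right; the bar beside each group is the mean and SD. Cer1 lies between 1.85 and 2.39 CPM in SRF KO and at most at 0.139 CPM in WT, while Gdf3 overlaps between the groups.

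The ligand genes differed little. The WT libraries had 1939, 1236 and 1642 counts of Nodal and the SRF KO libraries 1673, 1533 and 1762 (in the order of replicates 1 to 3, as below). In SRF KO these are 62.2, 57.9 and 60.9 CPM, against 53.5, 48.0 and 57.2 CPM in WT. The lowest SRF KO library was thus just above the highest WT library. The mean level of Nodal was 52.9 ± 4.63 CPM in WT and 60.3 ± 2.20 CPM in SRF KO (SD, n = 3), and the log2 fold change was 0.19 ± 0.067 (SE, edgeR adjusted p 0.0412). This call was lost without SRF KO replicate 1 (0.17, edgeR adjusted p 0.150), without SRF KO replicate 3 (0.18, 0.122) or without WT replicate 1 (0.20, 0.0827), and without WT replicate 2 the value was 0.13 (0.0433).

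Gdf3, whose product acts together with Nodal, had 1681, 1642 and 1861 counts in SRF KO and 2214, 1471 and 1846 in WT, or 62.5, 62.0 and 64.3 CPM against 61.1, 57.2 and 64.4 CPM. The groups overlapped, since WT replicate 3 was as high as the highest SRF KO library. The log2 fold change was 0.047 ± 0.056 (SE, edgeR adjusted p 0.532). It was between 0.011 and 0.087 when each library was left out in turn, and none of the 13 alternatives brought it past the threshold.

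Of the co-receptors, Tdgf1, which encodes Cripto, was by far the more abundant. It had 31695, 32614 and 35180 counts in SRF KO and 50114, 37472 and 37664 in WT, which are 1178, 1232 and 1216 CPM against 1384, 1457 and 1313 CPM. Every SRF KO library was below every WT library, and WT replicate 2 was the highest. Tdgf1 fell from a mean of 1384 ± 71.8 CPM to 1209 ± 27.7 CPM (SD, n = 3), and its log2 fold change was -0.20 ± 0.053 (SE, edgeR adjusted p 0.0111). Its call was lost without SRF KO replicate 1 (-0.18, edgeR adjusted p 0.0750), and the value was -0.15 when WT replicate 2 was left out (0.00605).

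Cfc1, which encodes Cryptic, the co-receptor known from left-right patterning, was near the limit of detection. It had 8, 5 and 9 counts in SRF KO and 6, 5 and 4 in WT, so that the groups overlapped. The ratio of the summed and scaled counts, 22 against 15, was 1.61, with an exact 95% interval of 0.801 to 3.35 that covers counting error only, and a difference was not detectable at this depth. With no filter on low counts its edgeR adjusted p was 0.338. Prss40, which overlaps it, had at most 1 count in any library.

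The Lefty genes changed in opposite directions. Lefty1 had 1390, 1284 and 1567 counts in SRF KO and 3021, 1831 and 2480 in WT, or 51.7, 48.5 and 54.2 CPM against 83.4, 71.2 and 86.5 CPM. Lefty2 had 5945, 5674 and 5989 counts in SRF KO and 5669, 3824 and 4384 in WT, or 221, 214 and 207 CPM against 157, 149 and 153 CPM. Neither gene overlapped between the groups, and Lefty2 was above Lefty1 in each of the 6 libraries. Lefty1 fell from a mean of 80.3 ± 8.09 CPM to 51.4 ± 2.84 CPM (SD, n = 3), and the log2 fold change was -0.64 ± 0.074 (SE, edgeR adjusted p 3.7e-05). Lefty2 rose from a mean of 152.7 ± 3.95 CPM to 214 ± 6.95 CPM (SD, n = 3), and the log2 fold change was 0.49 ± 0.048 (SE, edgeR adjusted p 1.1e-05). Both calls held under the 13 alternatives, which gave -0.72 to -0.59 for Lefty1 and 0.46 to 0.52 for Lefty2.

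The balance within the Lefty pair was then taken inside each library, where scaling plays no part. Lefty1 held 18.95%, 18.5% and 20.7% of the Lefty counts in SRF KO and 34.8%, 32.4% and 36.1% in WT. The exact binomial 95% intervals, which cover counting error only, reached at most 21.7% in SRF KO and at least 31.2% in WT, so that the groups lay apart. The mean share was 34.4% ± 1.90 in WT against 19.4% ± 1.20 in SRF KO (SD, n = 3). The log2 ratio of Lefty1 to Lefty2 was lower in SRF KO by a difference of -1.13, and lay between -1.19 and -1.07 when each library was left out in turn. Permuting the group labels over the 6 libraries (exact, two-sided) gave a p of 0.1, the smallest that 3 against 3 allow. This ratio was chosen after the values of the genes were seen.

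Counted together, Lefty1 and Lefty2 rose slightly, from a mean of 233 ± 11.4 CPM to 266 ± 6.17 CPM (SD, n = 3), and the log2 fold change was 0.19 ± 0.051 (SE, edgeR adjusted p 0.0119). Without SRF KO replicate 1 the call of the sum was lost (0.17, edgeR adjusted p 0.0729). Nodal also had a log2 fold change of 0.19. The sum is of counts not scaled by transcript length, which was 2473 bases for Lefty2 and 1620 bases for Lefty1. Lefty2 thus weighs more in the sum, and in its ratio to Nodal, than it would per kilobase. A sum per kilobase was not tested. There were 4.38, 4.54 and 4.29 Lefty counts for each Nodal count in SRF KO and 4.48, 4.58 and 4.18 in WT, and the groups overlapped. The mean log2 ratio was 2.14 ± 0.068 in WT against 2.14 ± 0.041 in SRF KO (SD, n = 3, exact two-sided permutation p 1), so that the means lay closer together than 1 SD. That p does not show that the ratios are equal, and the sign of the difference changed with the library left out, between -0.041 and 0.025.

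**Figure D2:**
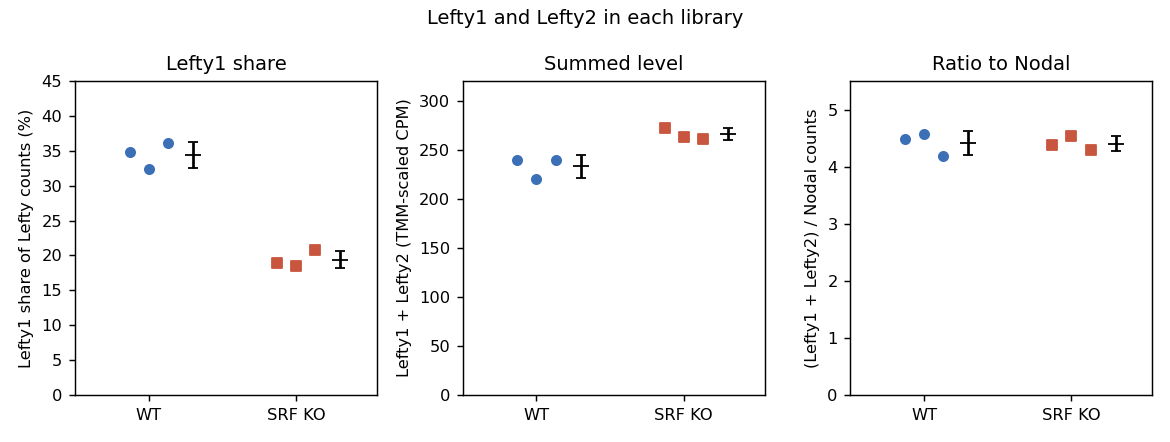
Share of Lefty1 in the counts of both Lefty genes (left, percent), their summed level (middle, TMM-scaled CPM) and their count ratio to Nodal (right, linear) in the WT (circles) and SRF KO (squares) libraries, with mean and SD as bars and all axes from 0. The share falls from 34.4% to 19.4% while the ratio to Nodal stays between 4.18 and 4.58 in all 6 libraries. Both are of counts not scaled by transcript length.

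Cer1 had the largest change of the 8 genes and one of the lowest levels. It had 60, 49 and 69 counts in SRF KO and 3, 1 and 4 in WT, or 2.23, 1.85 and 2.39 CPM against 0.0828, 0.0389 and 0.139 CPM. All SRF KO libraries were far above all WT libraries, which were at or near the floor of 3 counts. The log2 fold change was 4.55 ± 0.32 (SE, edgeR adjusted p 7.2e-07), and between 4.27 and 4.97 when each library was left out in turn. With 178 counts in SRF KO and 8 in WT, the ratio of scaled counts was 24.5, with an exact 95% interval of 12.2 to 57.6 for counting error only.

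Genes of extraembryonic endoderm moved with Cer1. The marker lists were chosen with earlier results of these data known, so their counts are descriptions. Of all entries tested, 20.4% were called higher in SRF KO. All 8 listed markers of primitive endoderm rose, and their summed level was 1739.7 to 1848 CPM in SRF KO and 188 to 205 CPM in WT. Of these, Col4a1, Lama1 and Dab2 were the most abundant, with log2 fold changes of 3.36, 2.76 and 3.68. All 6 tested of 7 listed markers of visceral endoderm rose, from a summed 12.1 to 14.2 CPM to 596 to 663 CPM, most of it Cubn, which SRF KO libraries held at 576 ± 29.2 CPM (SD, n = 3). Apob and Amn rose by 4.16 and 3.31 on the log2 scale. The serum protein gene Ttr, a marker of visceral endoderm, was at 0 counts in all WT libraries and at 35 to 52 in SRF KO, and Afp, another one, was at 3 counts or fewer in all 6 libraries. The part of these cells or genes in the rise of Cer1 was not tested, and in bulk RNA more cells of a type and more RNA per cell cannot be told apart.

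The level of Cer1 was small beside the summed levels of these marker lists, but not beside every marker in them. With a mean of 2.16 ± 0.275 CPM (SD, n = 3) in the SRF KO libraries, Cer1 was below Hnf4a at 4.84 ± 0.568 CPM. It was near Ttr at 1.67 ± 0.315 CPM and above Apoa1 and Afp, which are also on the visceral endoderm list. These markers were named after their values were seen. Lefty1, which pluripotent stem cells and the anterior visceral endoderm both make, was lower in the same SRF KO libraries. Which cells made its RNA was not tested. Markers of the other cell types that a culture could hold were examined as well. Counts of called markers are to be read beside all entries tested, of which 20.4% were called higher and 20.7% lower. The 8 pluripotency markers summed to 3885 to 3926 CPM in SRF KO and 4647 to 5203 CPM in WT, with 4 lower and 1 higher. Pou5f1 had a log2 fold change of -0.082 (edgeR adjusted p 0.258), which passed the threshold without WT replicate 2 (-0.13, 0.0134). Dppa5a and Esrrb fell by 0.42 and 0.49. The largest fall of the list was that of Nanog, at -0.79 (edgeR adjusted p 1.1e-07), which was named after its values were seen. All 7 fibroblast markers rose, from 403 to 457 CPM to 817 to 975 CPM, with Col1a1, Col1a2 and Col3a1 at 1.02, 1.09 and 1.09. Of 5 tested trophoblast markers 2 fell, Tfap2c and Krt7 (-1.10 and -2.43), the sum being 33.5 to 36.6 CPM against 69.7 to 81.5 CPM, and Hand1 was at -0.082 (edgeR adjusted p 0.849). Of 3 tested of 5 listed nascent mesoderm markers only Cyp26a1 rose (3.78), while Mesp2 and Tbx6 were at 0.27 and -0.017 (edgeR adjusted p 0.182 and 0.968). That list summed to 10.6 to 11.9 CPM in SRF KO and 3.07 to 3.73 CPM in WT.

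**Figure D3:**
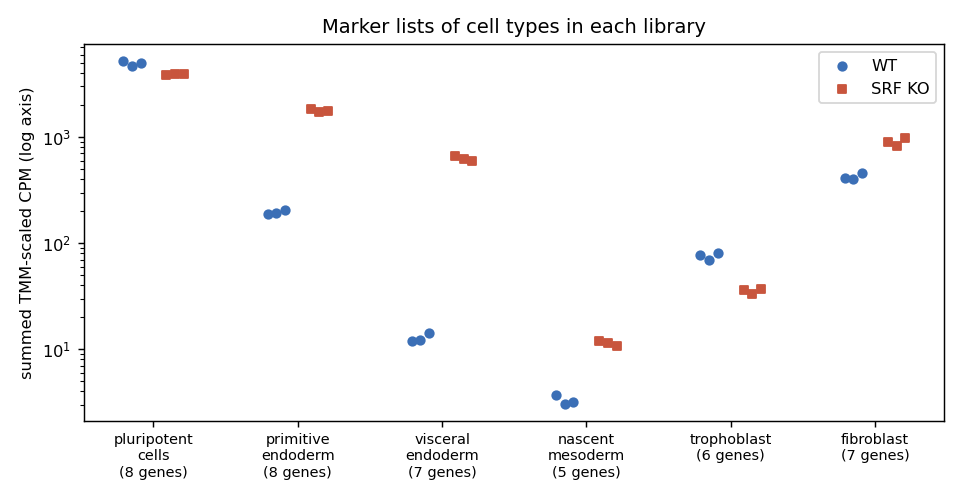
Summed TMM-scaled CPM (log axis) of 6 lists of cell type markers in the WT (circles) and SRF KO (squares) libraries, with replicates 1 to 3 from left to right. The visceral endoderm list lies at 12.1 to 14.2 CPM in WT and 596 to 663 CPM in SRF KO.

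Foxh1, the DNA-binding partner of the SMAD complex at Nodal and Lefty enhancers, rose. It had 1102, 1084 and 1267 counts in SRF KO and 919, 651 and 811 in WT, or 40.96, 40.9 and 43.8 CPM against 25.4, 25.3 and 28.3 CPM. The groups were well apart, with WT replicate 3 the highest of its group and SRF KO replicate 3 of its own. Foxh1 rose from a mean of 26.3 ± 1.69 CPM to 41.9 ± 1.65 CPM (SD, n = 3), and its log2 fold change was 0.67 ± 0.066 (SE, edgeR adjusted p 1.1e-05), and between 0.64 and 0.72 over the 13 alternatives. Its convergent neighbour Kifc2, whose reads could be mixed with its own where strand is not used, had 6.66 ± 0.650 CPM in WT against 5.68 ± 0.653 CPM in SRF KO (SD, n = 3, log2 fold change -0.23, edgeR adjusted p 0.135).

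**Figure D4:**
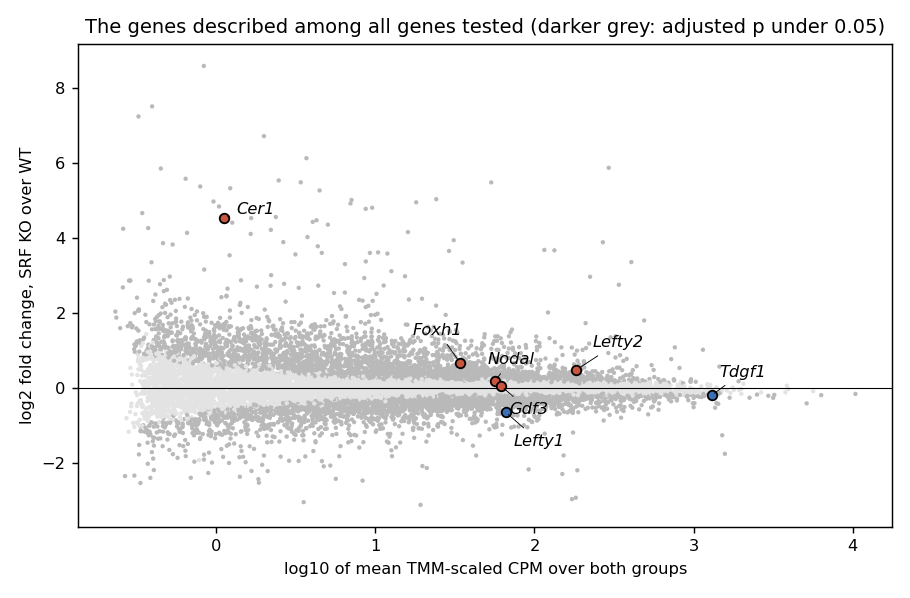
Log2 fold change (vertical axis) against log10 of the mean TMM-scaled CPM (horizontal axis) for all 14778 genes tested, with the 7 tested genes described here labelled (red, positive; blue, negative). Cer1 lies at 4.55 among the low-abundance rises, and Lefty1 and Lefty2 lie on opposite sides of 0.

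Levels were compared between genes per kilobase of the longest protein-coding transcript in GENCODE M21. In WT the order was Tdgf1 (717 ± 37.2 CPM per kb), Lefty2 (61.7 ± 1.60), Lefty1 (49.6 ± 4.99), Gdf3 (28.7 ± 1.69), Nodal (25.3 ± 2.21), Foxh1 (19.3 ± 1.24), Cfc1 (0.160 ± 0.026) and Cer1 (0.050 ± 0.029; SD, n = 3). Only Gdf3 and Nodal overlapped among neighbours in that order. In SRF KO Tdgf1 (626 ± 14.4 CPM per kb) and Lefty2 (86.6 ± 2.81) again stood first. Lefty1 (31.8 ± 1.76), Foxh1 (30.7 ± 1.21), Gdf3 (29.6 ± 0.578) and Nodal (28.8 ± 1.05) followed, each overlapping the next, and Cer1 (1.24 ± 0.158) lay above Cfc1 (0.256 ± 0.064; SD, n = 3). Lefty1, which per kilobase lay above Gdf3, Nodal and Foxh1 without overlap in WT, overlapped Foxh1 in SRF KO, and Tdgf1 lay far above the other 7 genes in both groups.

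The rest of the pathway was described with lists typed from general knowledge, but with earlier results of these data known. Of 38 listed genes 37 were tested, of which 14 were higher and 7 lower, with a median log2 fold change of 0.15 against -0.017 over all entries. These 21 are to be read beside the 41.1% of all entries that passed. Without WT replicate 2 they were 25, while the calls over all entries went from 6414 to 7629 (48.1%). Counts by direction, here and in the lists below, are to be read beside 20.4% of all entries called higher and 20.7% called lower. Outside the lists of targets and anterior endoderm genes, the largest fitted fold was 2.39, that of Inhba.

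Among other ligands of the activin receptors, 2 of 4 rose. Inhba, which encodes a subunit of activin A, rose from 7.91 ± 0.503 to 18.8 ± 0.270 CPM (SD, n = 3, log2 fold change 1.25, edgeR adjusted p 3.1e-07), and Gdf11 rose by 0.82 on the log2 scale. Of the extracellular antagonists, 1 of 3 rose. This was Fst, encoding the activin-binding follistatin, which went from 8.80 ± 0.304 to 18.7 ± 0.616 CPM (SD, n = 3, 1.09, edgeR adjusted p 6.8e-07). The fibroblast markers rose in the same SRF KO libraries, and which cells made the RNA of Inhba and Fst was not tested. Among receptor genes 1 of 3 tested fell, the type I receptor Acvr1b, by 0.36 on the log2 scale, and Acvr1c had at most 1 count in any library. The convertase gene Furin rose by 0.67, and Pcsk6, encoding the other convertase, changed by -0.16 (edgeR adjusted p 0.0339). The call of Pcsk6 was lost under DESeq2 (-0.15), with total-count scaling (-0.13), and in the fits that left out SRF KO replicate 1 (-0.16) or 2 (-0.12) or WT replicate 1 (-0.17) or 3 (-0.15). Of the SMAD effectors 1 of 3 passed, Smad4 at 0.16 (edgeR adjusted p 0.0273), but not when SRF KO replicate 2 (0.14), replicate 3 of the same group (0.16) or WT replicate 1 (0.15) was left out.

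Of 7 intracellular inhibitors, 3 fell and 1 rose. The transcriptional repressor genes Skil, Tgif1 and Tgif2 fell by 0.36, 0.26 and 0.26 on the log2 scale, and Pmepa1, a feedback inhibitor that TGF-beta signalling induces, rose by 0.81. Smad7, another feedback inhibitor, had 132 ± 12.4 CPM in WT against 134 ± 4.79 CPM in SRF KO (SD, n = 3), with an edgeR adjusted p of 0.873, and was named after its values were seen.

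Of 8 target genes of the pathway in the primitive streak and endoderm, 4 rose and 2 fell. Lhx1 and Foxa2, transcription factor genes of endoderm, rose by 5.27 and 3.89 on the log2 scale from 0.223 ± 0.109 and 0.318 ± 0.148 CPM in WT to 8.71 ± 0.185 and 4.97 ± 0.246 CPM in SRF KO (SD, n = 3). T, the primitive streak gene that encodes brachyury, fell by 1.15. Of 7 other genes of the anterior visceral endoderm, 4 rose and 0 fell. They were the Wnt antagonist genes Dkk1 (5.02) and Sfrp5 (1.54) and the transcription factor genes Hhex (0.71) and Otx2 (0.51, all as log2 fold changes). Dkk1 went from 15, 17 and 6 counts in WT to 405, 334 and 393 in SRF KO, a change of the size of that of Cer1. Otx2 is also a gene of the primed epiblast, and Lhx1 and Foxa2 are made by the visceral endoderm too, so that these lists share tissues with the endoderm markers, whose part was not tested.

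**Figure D5:**
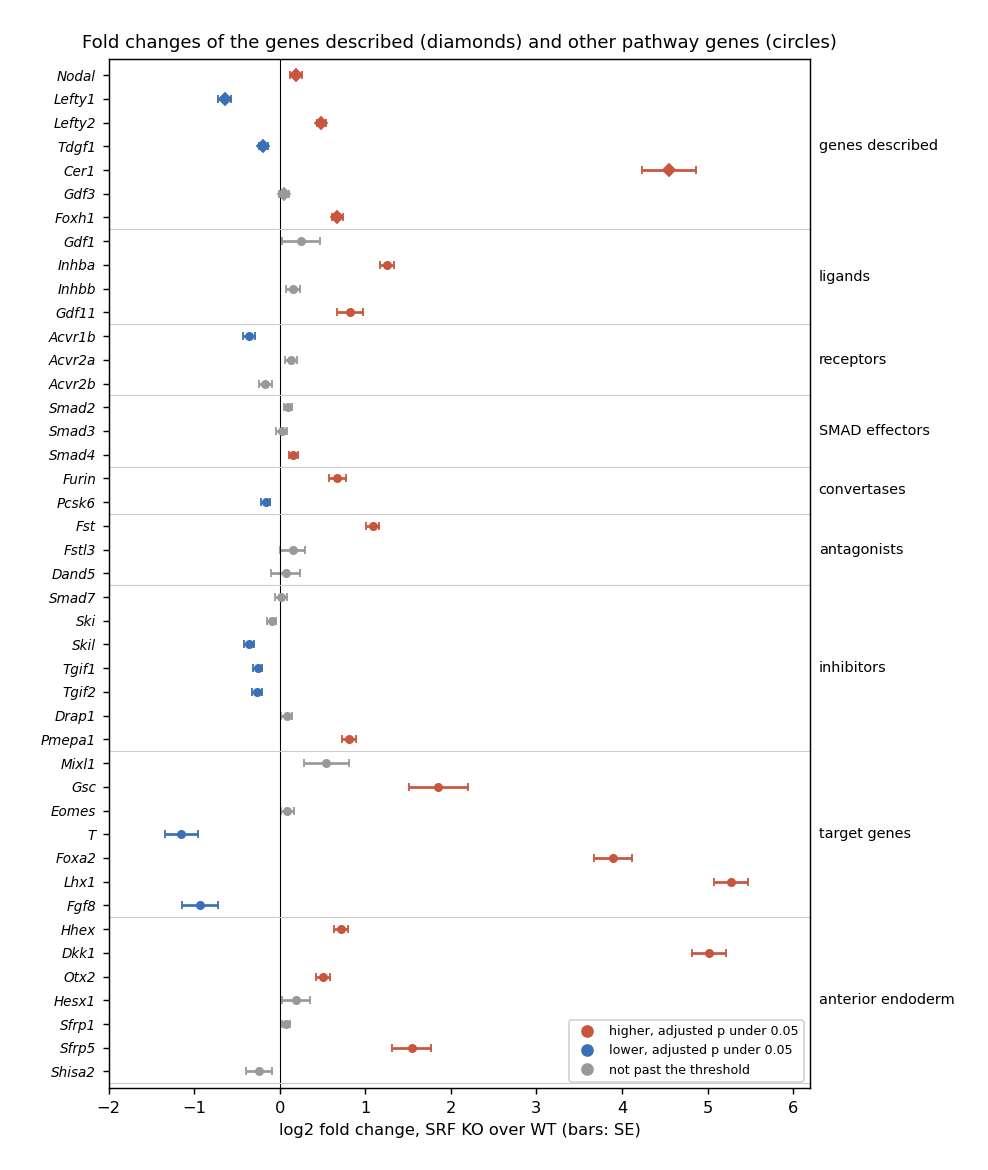
Log2 fold change of SRF KO over WT with SE (horizontal axis) for the 7 tested genes described here (diamonds) and other tested pathway genes (circles, 1 of them not drawn), in red where higher, blue where lower and grey where the adjusted p was not under 0.05. The largest values are those of Lhx1, Dkk1, Cer1 and Foxa2, between 3.89 and 5.27.

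For each tested gene, the other gene with the most similar profile was sought among 12338 genes with a mean of at least 50 counts, as the smallest root mean square difference of mean-centred log2 CPM over the 6 libraries. These were Akap12 for Tdgf1 (0.011 log2 units), Foxred2 for Gdf3 (0.012), Nol6 for Nodal (0.015), Prickle1 for Lefty2 (0.027), Kctd15 for Lefty1 (0.029), Fkbp14 for Foxh1 (0.029) and Runx1 for Cer1 (0.064). Their log2 fold changes were -0.21, 0.033, 0.19, 0.54, -0.69, 0.70 and 2.36. A pseudocount of 0.5 CPM was added before the logarithm, which compresses the profile of Cer1, so that Runx1 had a smaller fitted change. The likeness is a description over 6 libraries that fall into 2 groups.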

How the data were processed

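The deposited values are raw read counts per gene and per transposable element subfamily in 3 SRF KO and 3 WT libraries, judged from their being whole numbers with unequal totals. Per the labels' protocols, read pairs of 150 bp were cleaned of adaptors and of poor or empty reads. Per the submitters' processing notes, the build was mm10 and DESeq2 was used, with no role given. The aligner, counting program, annotation and strand setting are not given in the sources used here.

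Each column was matched to its sample by name. All entries were fitted together with edgeR 4.0.16 in R 4.3.3 (filterByExpr with a minimum count of 10, TMM, quasi-likelihood test, Benjamini-Hochberg adjustment, threshold 0.05), with no replicate term. CPM were scaled by TMM. The SE is the log2 fold change divided by the square root of F. Of the 25567 entries, 15611 were tested. Replicates differed by more than sampling noise (chi-square per degree of freedom 1.79 to 14.6). Low counts limit the precision of Cer1 and Cfc1. Scripts were tested on simulated data of 15611 entries, where edgeR recovered 94.5% of 200 changed entries with 3.08% false calls. The simulated counts had the same dispersion for every entry, few changed entries and no library apart from its group. These rates therefore check the scripts and do not carry over to the calls reported here.

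The 8 genes and all lists were chosen with earlier results of these data known. Named genes are the 8 genes, Srf, up to 4 called genes per pathway list with the smallest adjusted p, the 3 most abundant genes per marker list and the nearest gene to each tested gene; 1 gene that the rule names is not reported here. Alternatives were DESeq2 1.42.0, total-count and upper-quartile scaling, no filter, gene entries alone, an adjusted p of 0.01, a replicate block and leaving out each library. Whether the replicate numbers pair the libraries is not known. Deviations from the group means correlated at 0.047, 0.279 and 0.148 between libraries of the same number. Libraries of different numbers were not compared in this way, so these values do not settle it. Sequences are from GENCODE M21 and RefSeq, aligned with Biopython 1.88.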

Additional observations from a re-analysis of the deposited data

How the results depend on the processing

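Of 169 comparisons of the 14 main results with an alternative, 156 gave the same direction and call, a count within 1.5 times or a value within 1 SD. By this wide rule 4 of the 8 genes called, against 6, and 4276 entries called, against 6414, were taken as the same. The 14 results include the Lefty1 to Lefty2 ratio, which was chosen after the values were seen. Lefty1, Lefty2, Cer1 and Foxh1 kept their calls under all 13 alternatives run for them. At an adjusted p of 0.01, Nodal (0.19), Tdgf1 (-0.20) and the Lefty sum (0.19) were no longer called. When each library was left out in turn, Nodal was between 0.13 and 0.24, Tdgf1 between -0.23 and -0.15 and the Lefty sum between 0.15 and 0.21, and their calls were lost in 3, 1 and 1 of these fits, which use fewer libraries. The log2 difference of the Lefty to Nodal ratio was between -0.041 and 0.025 across the 6 such values, with a sign that changed, and was -0.83 with Lefty1 alone over Nodal. DESeq2 called 5587 entries and an adjusted p of 0.01 left 4276, against 6414. Leaving out WT replicate 2 raised this number to 7629, and the other single libraries gave 4807 to 6074.

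With a replicate block 7712 entries were called, Nodal was at 0.19 (edgeR adjusted p 0.00593) and no call among the 8 genes changed. It is not known whether the replicate numbers pair the libraries. A sum of Tdgf1 with other entries of that name was not run, since the table holds 1 such entry. Among 45 other named genes 585 comparisons gave 15 lost calls (Smad4, Pcsk6 and Nol6), 1 gained call (Pou5f1) and 8 changes of sign. The changes of sign were all in genes that were not called, namely Tbx6 under DESeq2 (0.012), total-count scaling (0.019) and the replicate block (0.013) and, without 1 library, between -0.15 and 0.29, Hand1 between -0.34 and 0.16 and Foxred2 between -0.0020 and 0.067. The cause was not tested. Depth limits Cfc1 and the WT value of Cer1.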
